A study of Mus musculus with 104 samples.

Results

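The 89 genes described here carry the symbols of cytosolic ribosomal proteins. They were taken by symbol, as every listed gene whose symbol starts with Rpl or Rps and a digit, with Rpsa, Rplp0, Rplp1 and Rplp2, without pseudogene symbols and without the Rps6k kinases. They make up 89 of the 24940 genes listed in each of the 8 deposited tables, with 54 symbols of the large subunit and 35 of the small subunit. The rule also takes paralogs (Rps4l, Rps27l, Rpl22l1, Rpl39l, Rpl3l and Rpl10l among them), Rpl7l1, and Rps19bp1, a gene named for a protein that binds RPS19 and not for a subunit protein.

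Ribosomal proteins and ribosomal RNA build the large and the small ribosomal subunit, and each protein is needed in the same number of copies as nearly all others. Their mRNAs are among the most abundant of any cell and typically start with a C and a run of pyrimidines, the 5-prime terminal oligopyrimidine tract, through which the mTORC1 kinase controls their translation. In macrophages their transcript levels are known to move with growth, proliferation and activation.

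Mouse liver macrophages and their precursors were profiled by bulk, poly(A)-selected RNA-seq in 104 libraries of 47 groups. Kupffer cells, which are the liver's own resident macrophages, were depleted with diphtheria toxin in mice that carry the toxin receptor under Clec4f-cre, and macrophages refilling the liver were taken 12, 24, 48, 72, 168 and 336 h later (2 or 3 libraries a time). They stand beside 4 libraries of Ly6C-high blood monocytes of C57BL/6J mice, 1 of them titled a pool, and 3 of Kupffer cells of the toxin-receptor strain 72 h after PBS. In the same depletion model, macrophages taken at 24 h came from mice given LY411575, a γ-secretase inhibitor that blocks Notch activation, or antibodies that block DLL1 and DLL4, which are Notch ligands, each with its own controls.

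The other groups were the following. Nr1h3 encodes LXRα, a sterol-activated nuclear receptor, and Nr1h3 flox/flox mice with or without Clec4f-cre +/- gave Kupffer cells positive or negative for TIM4, a marker of long-resident Kupffer cells, with 7-day bone marrow-derived macrophages (BMDMs) of Nr1h3 wild-type and knockout mice beside them. Smad4 encodes the shared mediator of TGF-beta signalling, and Smad4 flox/flox mice with or without Clec4f-cre +/- gave TIM4-positive or TIM4-negative Kupffer cells. Smad4 control and knockout BMDMs of 4 days were given DLL4, TGF-beta, both, or DLL4 with the γ-secretase inhibitor DAPT for 24 h. Their knockout is labelled Clec4f-cre in the sample labels and LysM-cre in the series' design text. BMDMs of C57BL/6J mice were given DLL4, DLL4 with TGF-beta, or both with DMHCA, a sterol ligand of LXR. The treatment lasted 24 h (4-day cells) or 72 h (6-day cells, whose treatment label also reads 24 h, so that the titles were followed). DMHCA alone was given for 24 h only. Bone marrow monocytes cultured for 2 days were given DLL4 or desmosterol, a natural sterol ligand of LXR, for 48 h. Others were given DLL4 with TGF-beta, or DLL4 with TGF-beta and desmosterol. Their column names give male C57BL/6J mice and call the cells BMDM, where the titles read BMmono, and the titles were followed. Liver cells of C57BL/6J mice were sorted into low, intermediate and high classes by STAB2, a receptor of sinusoidal endothelium. The LY411575 and antibody samples are labelled C57BL/6J where the design text names the toxin-receptor mice, and a label names the agent on their controls too. The descriptions call the LY411575 mice female, the antibody mice male and all of them fasted. The labels do not say whether libraries of a group are separate animals or cultures, so that p-values measure only the spread between these libraries.

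Recovered reads ran from 7830287 to 27775838 per library, of which 36251 to 239702 fell on the members, which sets how precisely a low member is read. Kupffer cell markers summed to 17300 to 18400 TPM in Kupffer cells and to 4.76 to 6.34 TPM in blood monocytes. Nr1h3 was at 391 to 422 TPM in TIM4-positive and 341 to 395 TPM in TIM4-negative cells labelled knockout, beside 393 to 409 TPM in control Kupffer cells. TPM over a whole gene does not reveal whether single exons are missing, and those cells are called "labelled Nr1h3 knockout" below. In knockout BMDMs Nr1h3 was lower, at 8.05 to 8.81 TPM against 41.9 to 43.3 TPM. Smad4 was at 13.7 to 21.5 TPM in TIM4-positive and 15.1 to 19.6 TPM in TIM4-negative knockout cells, beside 33.4 to 35.7 TPM in control Kupffer cells. In BMDMs Smad4 was at 8.52 to 11.3 TPM in knockouts and 20.4 to 26.5 TPM in controls. In bulk RNA, fewer cells of a type and less RNA per cell cannot be told apart.

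The promoters are shown first, since the pyrimidine start is the sequence feature that ribosomal protein genes are known to share. RefSeq (GRCm38.p6) gave a promoter, 250 bases before to 50 after the start, for 66 of the 89 members within 100 bases of their listed start. The following 80 bases run 5′ to 3′ on the gene's strand, from 60 before the start through 20 after it. Rpl13a and Rps9 are shown as 2 of the members that rose most in cultured monocytes given DLL4, Rps2 for its steep rise after Kupffer cell depletion, and Rpl22l1 and Rps27l as paralogs that moved apart in the same cultures. Capitals mark 5-letter strings of a C followed by C or T only, within 10 bases before to 15 after the start.
Rpl13a: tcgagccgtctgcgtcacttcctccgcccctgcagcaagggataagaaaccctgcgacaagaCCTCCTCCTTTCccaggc
Rps9: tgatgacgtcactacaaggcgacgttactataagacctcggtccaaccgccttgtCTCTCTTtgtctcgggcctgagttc
Rps2: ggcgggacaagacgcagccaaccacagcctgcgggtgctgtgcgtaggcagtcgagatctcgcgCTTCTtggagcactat
Rpl22l1: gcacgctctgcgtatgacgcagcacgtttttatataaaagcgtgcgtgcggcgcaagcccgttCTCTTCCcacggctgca
Rps27l: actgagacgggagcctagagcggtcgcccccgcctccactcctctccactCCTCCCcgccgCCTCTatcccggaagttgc

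These windows lie at chr7:45128726-45128805 on the minus strand (Rpl13a), and on the plus strand at chr7:3703981-3704060 (Rps9), chr17:24720003-24720082 (Rps2), chr3:28805448-28805527 (Rpl22l1) and chr9:66946026-66946105 (Rps27l). Each of the 5 held such a string, whichever way the gene moved. There are 16 such strings, every way of filling the places after the C with C or T, from CCCCC through CTTTT. On the gene's strand, 35 of the 66 matched members (53.0%) held 1 or more of them, against 31.2% of 17264 promoters. On the other strand the shares were 21.2% of members and 35.3% of all promoters. With the 6 strings tried first, which were CTTTC and CTTCC and CTTTT and CCTTT and CCTTC and CTCTT, 26 members (39.4%) and 14.8% of promoters had a match on the gene's strand, and 15.2% and 15.6% on the other. CTTCCG, which overlaps the string CTTCC and was searched on both strands over the whole 300 bases, was found in 44 members (66.7%) and 21.8% of promoters, and AAGATGG in 9 members (13.6%) and 6.6%. The strings, the window and the genes shown were chosen after results had been seen, and a match describes the letters only.

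Levels are given as TPM, a length-scaled unit. An order of members by TPM is an order of listed levels, since reads shared with near-identical genes may be split. Summed over the 89 members, TPM made up between 0.942% and 4.689% of the TPM of all listed genes in a library. The member with the highest mean level over the 104 libraries was Rplp1 (1417 TPM), which with Rplp2 forms the acidic stalk that recruits translation factors, and Rpl4 (770 TPM), Rpl8 (745 TPM) and Rpl32 (735 TPM) were also among the highest. At the other end Rpl10l, a paralog known from testis, was listed at 0 TPM in 103 libraries. Genes were tested in a table where at least 2 of its libraries reached 4 TPM. Between 68 and 74 members passed in each table, 65 passed in all 8, and 13 passed in none. Those 13 were Rpl10l, Rpl11, Rpl23a, Rpl24, Rpl27, Rpl28, Rpl36a, Rpl38, Rpl3l, Rps16, Rps23, Rps27rt and Rps29, among them proteins that every ribosome needs. Of the 89 members 85 share 50-base stretches of their transcript with other genes, pseudogenes among them, over a median of 51.7% of their length. The 13 never tested shared a median of 52.1% and the others 50.25%. Across the members, shared length and log2 mean TPM had a Pearson correlation of -0.241 and a Spearman correlation of -0.253, over genes of the same libraries. Further, 30 members lie over another listed gene on the same strand, 6 of them over at least 90% of their span. In the others each overlapping gene covers only 0.9% to 7.1% of the span.

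**Figure D1:**
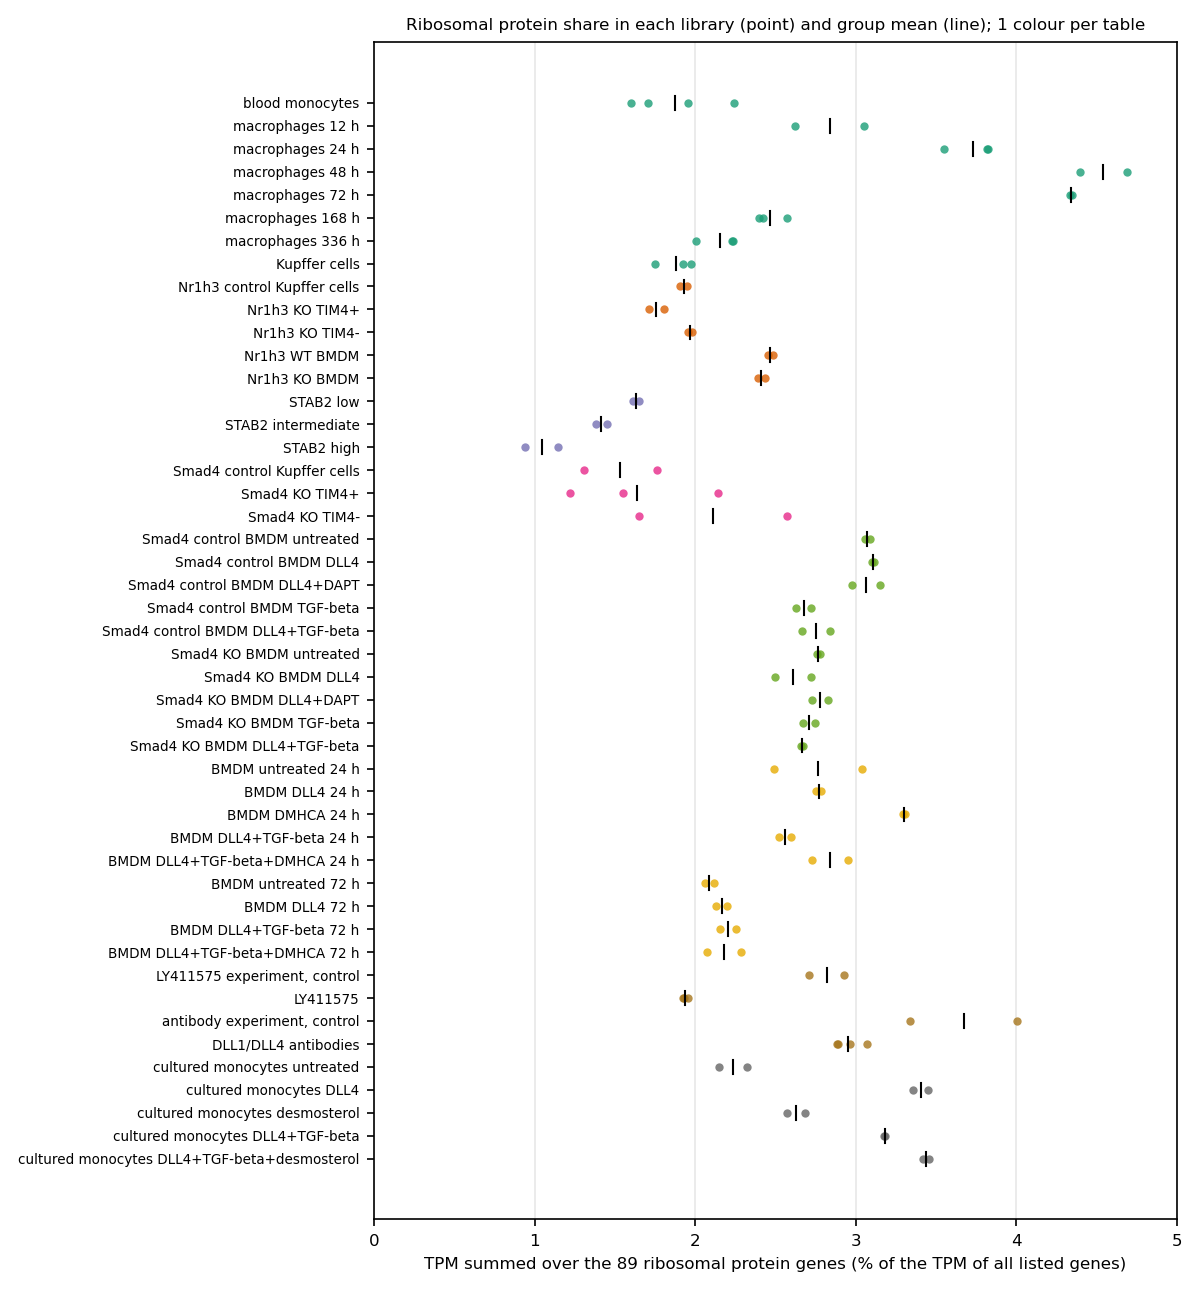
TPM summed over the 89 members as a percentage of the TPM of all listed genes (horizontal axis) in each of the 104 libraries (points) of the 47 groups (vertical axis), with the group mean as a line and 1 colour per deposited table. Macrophages at 48 h hold the highest shares, 4.39% and 4.69%, and STAB2-high liver cells the lowest, 0.942% and 1.14%.

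The first question is how ribosomal protein transcripts move while blood monocytes replace lost Kupffer cells. They rose early, stood highest at 48 and 72 h, and had come down by 168 h. The share of member TPM ran from 1.60% to 2.24% in blood monocytes. The 12 h libraries had 2.62% and 3.05%, and those of 24 h had 3.55% to 3.82%. Shares of 4.39% and 4.69% were reached by 48 h, with 4.34% and 4.35% in the 72 h libraries. The 48 h and 72 h libraries lay above every other library of the table. The share then dropped to 2.40% to 2.57% by 168 h and 2.01% to 2.24% by 336 h, beside 1.75% to 1.97% in Kupffer cells. Of the 74 members tested in this table, 43 had their highest group mean at 48 h and 20 at 72 h. The lowest group mean was that of monocytes for 34 and that of Kupffer cells for 31. Such counts were not made over all genes, so that they describe the members only.

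Rplp0, the base of the stalk, was at 570.8, 639, 673 and 746 TPM in monocytes and in the 12 h libraries at 726 and 784 TPM. By 48 h it had reached 1171 and 1296 TPM, and by 336 h it was down to 420 to 429 TPM, beside 381, 403 and 419 TPM in Kupffer cells. The monocyte and 12 h libraries of Rplp0 thus overlapped, and its 48 h libraries stood clear of both ends. Rplp1, its partner in the stalk, was at 382 to 632 TPM in monocytes, 1104 and 1319 TPM in the 12 h libraries, 2635 and 2829 TPM in those of 48 h, 900 to 959 TPM after 336 h and 1134 to 1272 TPM in Kupffer cells. Unlike those of Rplp0, the Kupffer cell libraries of Rplp1 all lay above those of the monocytes. Rps2, which lies near the entry of the mRNA channel, was at 56.9 to 64.8 TPM in monocytes, 153.01 and 215 TPM in the 12 h libraries, 261 and 293 TPM in those of 48 h and 89.8 to 94.5 TPM in Kupffer cells.

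Comparisons below are differences on the log2(TPM + 1) scale with their standard errors, from limma models fitted across all genes tested with Benjamini-Hochberg adjusted p, and a gene is called where that p is below 0.05. At 12 h against monocytes, 45 members were called higher and 6 lower of 74 tested, where 26.9% of 11373 genes were called higher and 35.5% lower. The median of the members was 0.48, that of all genes -0.08 and that of other short genes (up to 1000 bases) 0.25. At least 2-fold, 16 members rose and 3 fell, where 12.5% and 12.7% of all genes did. Rplp2 rose by 2.03 ± 0.33 (adjusted p = 4e-05), Rpl36 by 2.03 ± 0.51 (adjusted p = 0.0021), Rpl10a by 1.79 ± 0.26 (adjusted p = 1.5e-05) and Rps2 by 1.59 ± 0.11 (adjusted p = 3.5e-09). Rpl10 fell by 2.38 (adjusted p = 2.3e-05), from 12.1 to 13.6 TPM to 1.61 and 1.67 TPM. Rpl5, which carries the 5S RNA into the large subunit and binds the p53 regulator MDM2 when it is free, fell by 1.24 (adjusted p = 3.3e-06), from 23.3 to 28.8 TPM to 10.6 and 10.7 TPM. Both low members share most of their length with other genes, Rpl10 92.1% and Rpl5 93.8%. Without the second 12 h library 27 members were called higher and 4 lower.

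Against monocytes, the numbers called higher and lower were 61 and 3 for the 24 h macrophages (73.1% of all genes called), 63 and 3 for those of 48 h (72.2%) and 59 and 3 for those of 72 h (72.6%). Later they were 38 and 6 for 168 h (67.3%) and 25 and 14 for 336 h (70.1%). These comparisons share their monocyte libraries. The member medians were 0.89, 1.15, 1.09, 0.40 and 0.20 in that order, so that the members' difference from monocytes was lower at 168 and 336 h than at 48 h. Under quantile normalization, the split at 336 h was 37 higher and 11 lower, and the median of all genes at 48 h moved from 0.09 to -0.02. Rplp1 was higher at 48 h than in monocytes by 2.46 ± 0.15 (adjusted p = 1.8e-10) and Rps2 by 2.19 ± 0.11 (adjusted p = 1.9e-11), while Rpl5 was lower by 0.91 on this scale (adjusted p = 6.1e-05).

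Neighbouring times, which lie unequal intervals apart, were compared next. From 12 to 24 h 24 members rose and 0 fell (26.9% of all genes called), a count that was 10 without the first 12 h library. Rpl3, which lies by the peptidyl transferase centre, rose by 0.95 ± 0.15 (adjusted p = 0.00022) and Rpsa, a small-subunit protein also known as a laminin receptor, by 0.85 ± 0.11 (adjusted p = 3.2e-05). Rpsa had been among the 6 members lower at 12 h than in monocytes, by 0.36 ± 0.11 (adjusted p = 0.0063). From 24 to 48 h 3 members rose, Rpsa and Rpl41 among them (12.1% of all genes called). From 48 to 72 h 1 of the 74 was called (1.78% of all genes called). From 72 to 168 h 50 members fell and 1 rose (34% of all genes called, 21.3% lower), with a median of -0.64 against -0.06 for all genes. Rps26, at the mRNA exit channel, fell there by 1.28 (adjusted p = 5.6e-07), and from 168 to 336 h it was the 1 member called, with a further fall of 0.67 (adjusted p = 0.0055, 0.114% of all genes called). In that last interval 69 of the 74 members had a negative difference, with a median of -0.21 against -0.05 for all genes, and the member shares at 336 h all lay below those at 168 h. Rps26 stood at 188, 213 and 224 TPM at 336 h, below the 291 to 302 TPM of Kupffer cells.

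The other parts of the translation apparatus and the cell cycle genes were counted in the same fits. At 12 h against monocytes, 32 of 36 ribosome biogenesis genes were called higher and 1 lower, and 36 of 76 mitochondrial ribosomal protein genes higher and 3 lower. Of other genes with a pyrimidine tract start (translation factors such as the elongation factors), 6 of 20 were higher and 4 lower. From 72 to 168 h 16 of those 20, 12 of the 36 biogenesis genes and all 18 cell cycle genes fell, and none of them rose. Summed TPM of the cell cycle list was 84.9 to 99.5 in monocytes, 121 to 127 by 12 h, 180 to 340 by 24 h and 1170 to 1240 by 48 h, and it went from 876 to 1050 in the 72 h libraries to 124 to 181 in those of 168 h. Erythroid markers summed to 1700 to 7130 TPM in monocytes and to 0.729 to 1.72 TPM at 12 h, and hepatocyte markers to 1800 to 7590 TPM in Kupffer cells. The part of dividing cells and of these other cells in the members' differences was not tested.

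**Figure D2:**
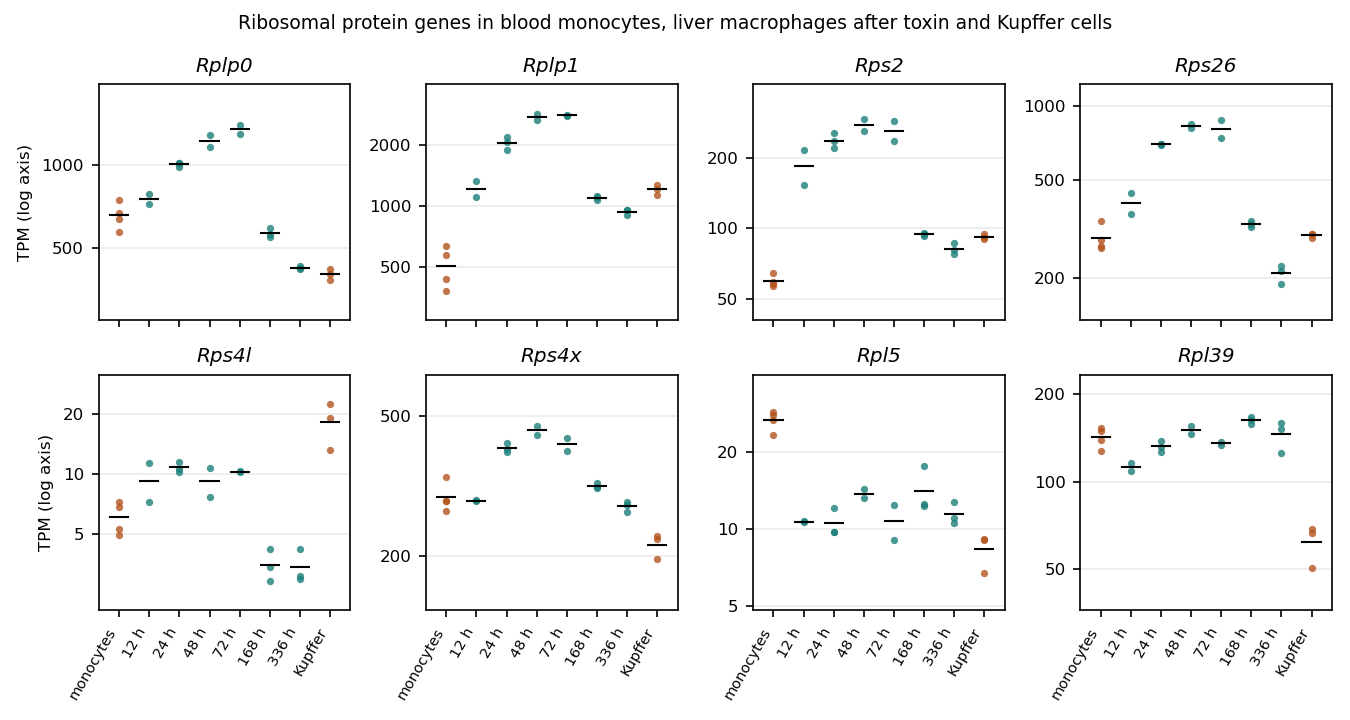
TPM on log axes of 8 members in each library (points) of blood monocytes, liver macrophages at 6 times after toxin and Kupffer cells, with group means as lines. Rplp0, Rplp1, Rps2 and Rps26 stand highest at 48 and 72 h, while Rps4l and Rpl39 set Kupffer cells apart from macrophages at 336 h in opposite directions.

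Against Kupffer cells, macrophages at 48 h were higher for nearly all members tested. Of 74 members 65 were called higher and 1 lower, with 29.3% and 22.9% of all genes called, and 57 were higher by at least 2-fold, where 10.3% of all genes were. The middle 50% of the members lay between 1.03 and 1.50, around a median of 1.21, with a median of 0.03 for all genes and 0.33 for other short genes. By subunit, 40 of 43 large-subunit members were higher, at a median of 1.19, and 25 of 31 small-subunit members, at a median of 1.22. Rplp0 was higher by 1.62 ± 0.10 (adjusted p = 1e-09), Rps2 by 1.58 ± 0.12 (adjusted p = 1.5e-08), Rpsa by 1.57 ± 0.11 (adjusted p = 8.6e-09) and Rplp1 by 1.18 ± 0.16 (adjusted p = 9e-06). The first Kupffer cell library was low for Rpl22l1 (9.25 TPM against 34.4 and 33.4 TPM) and Rps19 (39.8 TPM against 97.0 and 90.4 TPM). Leaving out each of the 48 h and Kupffer cell libraries in turn gave 64 to 67 members called. Beside them 35 of 36 biogenesis genes, 18 of 20 other pyrimidine-tract genes, 69 of 76 mitochondrial ribosomal protein genes and 18 of 18 cell cycle genes were called higher and none lower, while 29 of 44 initiation factor genes were higher and 3 lower.

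Macrophages at 336 h were also set against Kupffer cells. Of 74 members 14 were higher at 336 h and 2 lower (21.2% of all genes called), a count of 16 that was 10 without the second or the last 336 h library. Rpl39, a very small protein of the exit tunnel, was at 126, 152 and 160 TPM at 336 h and at 50.4, 66.7 and 68.5 TPM in Kupffer cells, a difference of 1.23 ± 0.11 (adjusted p = 8.7e-07). Monocytes had 127 to 152.6 TPM of Rpl39, so that Kupffer cells alone were low among these 3 groups. Rpl13 was higher at 336 h by 1.10 ± 0.18 (adjusted p = 0.00046), while Rplp0 was not called, at 0.08 (adjusted p = 0.54). The 2 members lower at 336 h were Rps26, by 0.52 (adjusted p = 0.0018), and Rps4l.

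Rps4l, an autosomal paralog of the X-linked Rps4x, went its own way. It was at 4.97 to 7.26 TPM in monocytes, 2.91 to 4.24 TPM at 168 h, 3.00 to 4.21 TPM at 336 h and 13.2, 19.0 and 22.4 TPM in Kupffer cells. Its Kupffer cell libraries lay above all other libraries of the time course, the 48 h libraries (7.65 and 10.7 TPM) included. Rps4l was lower at 336 h than in Kupffer cells by 2.10 on the log2 scale (SE 0.20, adjusted p = 1.9e-06), and lower at 48 h by 0.90 (adjusted p = 0.0025). Rps4x, the main form, was at 269 to 336 TPM in monocytes, 443 and 470 TPM at 48 h, 267 to 285 TPM at 336 h and 196 to 228 TPM in Kupffer cells. The transcript of Rps4l shares 14.9% of its 50-base stretches with another gene, the pseudogene Rps4l-ps.

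In the Nr1h3 experiment Rps4l was at 27.0 and 32.5 TPM in control TIM4-positive Kupffer cells, 15.1 and 16.5 TPM in TIM4-positive cells labelled Nr1h3 knockout, 7.13 and 7.80 TPM in the TIM4-negative ones and 6.51 and 6.52 TPM in wild-type BMDMs. The 4 groups did not overlap. Rps4l fell by 0.87 (adjusted p = 0.00061) from control to labelled-knockout TIM4-positive cells, and by a further 0.99 (adjusted p = 0.0019) from TIM4-positive to TIM4-negative cells. Rps4x was at 185 to 206 TPM in those 8 libraries and was called in neither comparison (adjusted p = 0.14 and 0.36). In the Smad4 experiment Rps4l was at 14.2 and 21.2 TPM in control Kupffer cells, 12.0, 12.7 and 15.1 TPM in TIM4-positive and 3.19 and 3.68 TPM in TIM4-negative knockout cells. There the TIM4-negative cells again lay lowest, with a difference from the TIM4-positive ones of -1.68 ± 0.19 that missed the threshold (adjusted p = 0.068). With a block for the number that 1 library of each of these groups shares in its title, the difference was -1.69 ± 0.20 (adjusted p = 0.046).

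Set against monocytes, Kupffer cells had no common direction among the members. Of 74, 8 were higher and 22 lower (72.5% of all genes called, 34% higher and 38.5% lower), with a median of 0.04 against -0.06 for all genes. Under quantile normalization 19 were higher and 20 lower, so that the excess of lower members is not independent of the scaling. Higher were Rps4l (1.42 ± 0.19, adjusted p = 1.9e-06), Rplp1 (1.28 ± 0.13, adjusted p = 8.5e-08), Rpl41 (0.81 ± 0.17, adjusted p = 0.00028), Rpl12 and Rps21. Lower were Rpl17 by 1.84, Rpl5 by 1.58 (adjusted p = 1.3e-08), Rpl13 by 1.35, Rpl10 by 1.21 and, with the levels given above, Rpl39 (adjusted p = 6.9e-09). The stalk proteins split, Rplp0 being lower by 0.71 (adjusted p = 3.5e-07) where Rplp1 was higher. Of the other pyrimidine-tract genes 1 of 20 was higher and 12 lower, and of the biogenesis genes 8 of 36 were higher and 14 lower.

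Against BMDMs, control Kupffer cells of the Nr1h3 experiment had lower levels of most members. Of 74 members 47 were called lower and 8 higher, where 38.4% of 10558 genes were lower and 43% higher, with a median of -0.30 against 0.05 for all genes. Other short genes had a median of -0.28, close to that of the members. Rplp0 was at 321 and 322 TPM in Kupffer cells and 646 and 657 TPM in BMDMs, lower by 1.02 (adjusted p = 1.3e-07). Rps2 was lower by 0.91 and Rplp1 by 0.79 (adjusted p = 7.4e-06 and 4.6e-06). The largest falls were those of Rps19bp1, by 1.47, and Rps27l, a paralog of Rps27 known as a p53 target, by 1.42 (adjusted p = 2.7e-06), from 81.7 and 94.7 TPM to 30.9 and 33.6 TPM. Higher in Kupffer cells were Rps4l by 2.03 ± 0.10 (adjusted p = 1.8e-07) and Rpl22l1, the paralog of Rpl22, by 0.35 ± 0.09 (adjusted p = 0.0076). Rps13 was at 1.79 TPM on average against 0.366 TPM, and its difference of 0.98 was -0.002 under quantile normalization. Of the biogenesis genes 34 of 35 were lower and none higher, and of the mitochondrial ribosomal protein genes 68 of 76 were lower and 2 higher.

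Few members were called for the labelled Nr1h3 knockout, though most leaned lower in TIM4-positive cells. In TIM4-positive Kupffer cells 11 of 74 were lower than in controls and 0 higher (23.4% of all genes called, 17.2% higher and 6.28% lower), a count that was 18 without the first knockout library and 3 without the second. There 58 of the 74 had a negative difference, with a median of -0.12 against 0.10 for all genes and 0.02 for other short genes. The member share was 1.711% and 1.805% in these cells and 1.908% and 1.949% in controls. Beside Rps4l, Rps2 fell by 0.36 (adjusted p = 0.016), from 96.4 and 112 TPM to 77.3 and 85.3 TPM. In TIM4-negative against TIM4-positive cells 4 were higher (Rpl17, Rpl32, Rplp0 and Rps26) and Rps4l lower (1.62% of all genes called). In knockout against wild-type BMDMs limma called 0 members, with 4 at an unadjusted p under 0.05 (2.09% of all genes called).

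In the Smad4 Kupffer cells limma called 0 of 70 members in either comparison. In TIM4-positive knockout against control cells 0 had an unadjusted p under 0.05 (1.32% of all genes called), and in TIM4-negative against TIM4-positive knockout cells 2 did (0.0503%). The member share spread widely within groups, at 1.31% and 1.76% in controls, 1.22%, 1.55% and 2.14% in TIM4-positive and 1.65% and 2.57% in TIM4-negative knockout cells. The groups overlapped. The highest TIM4-positive and the highest TIM4-negative library carry the same number in their titles, which the labels do not explain, and their deviations from the group means had a correlation of 0.65 over genes. The second libraries of these groups, whose titles differ, had a correlation of 0.463. With only 2 TIM4-negative libraries, their deviations are opposite by construction. With the shared title number as a block, a fit added after the data were seen, limma called 0 members in TIM4-positive knockout against control cells (4 at an unadjusted p under 0.05, 3.59% of all genes called). In TIM4-negative against TIM4-positive cells it called 1 (9 at an unadjusted p under 0.05, 0.312% of all genes called), which was Rps4l.

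Liver cells low for STAB2 had more ribosomal protein transcript than STAB2-high cells. The member share was 1.61% and 1.65% in low, 1.38% and 1.45% in intermediate and 0.942% and 1.14% in high cells. Of 68 members 39 were called higher in low against high cells and 0 lower (29.7% of all genes called, 17.6% higher), with a median of 0.66 against 0.08 for all genes and 0.05 for other short genes. Rplp0 was at 311 and 321 TPM in low, 226 and 254 TPM in intermediate and 175 and 188 TPM in high cells, and the difference of low from high was 0.80 ± 0.10 (adjusted p = 0.0016). Rps7 differed most, by 1.49 ± 0.31 (adjusted p = 0.014), from 1.22 and 1.47 TPM to 4.24 and 7.28 TPM. Rps4l was at 41.9 and 56.5 TPM in low and 18.2 and 22.8 TPM in high cells. Under quantile normalization 29 members were higher, and the median of all genes moved from 0.08 to -0.04. The count was 20 without the low library titled 210, 14 without the other low library and 23 without the high library titled 210. In intermediate against high cells limma called 0 members, with 34 at an unadjusted p under 0.05 (0.00946% of all genes called). Of the other pyrimidine-tract genes 8 of 20 were higher in low cells, of biogenesis genes 2 of 32, and of cell cycle genes 12 of 16 were lower. Endothelial markers of the sinusoid summed to 4700 to 5310 TPM in low, 17200 to 19400 TPM in intermediate and 19900 to 21200 TPM in high cells, and macrophage markers to 136 to 361 TPM. Other markers were higher in the low class, as the members were: those of large vessel endothelium summed to 4880 to 5190 TPM in low, 1640 to 1680 TPM in intermediate and 1270 to 1530 TPM in high cells, and monocyte markers to 179 to 274 TPM, 29.0 to 86.0 TPM and 6.97 to 23.2 TPM. The STAB2 classes thus differed in the markers of several cell types, whose part in the members' difference was not tested. The header lines give the low libraries another code than the intermediate and high ones, and that code and the STAB2 class cannot be told apart.

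**Figure D3:**
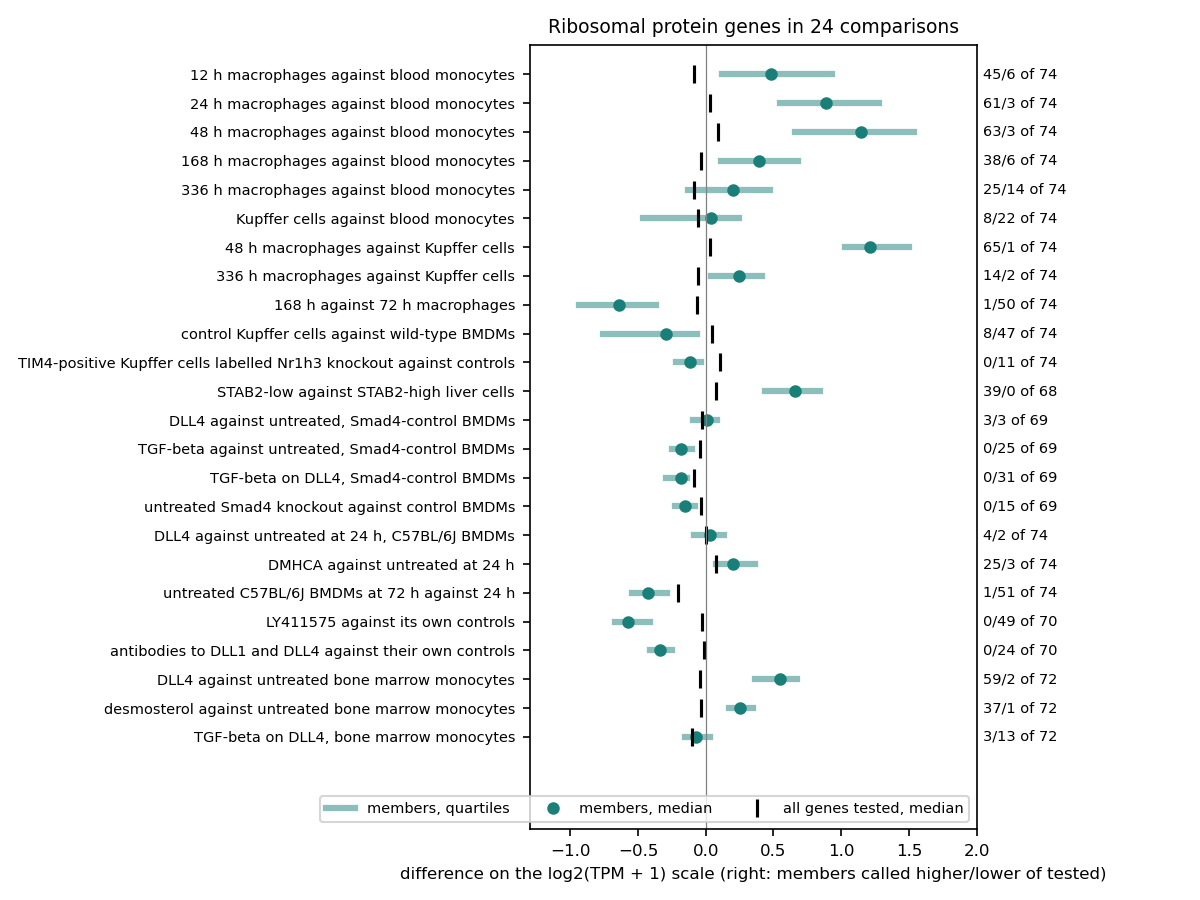
Differences on the log2(TPM + 1) scale (horizontal axis) in 24 comparisons (vertical axis), with the median of the members tested as a point, their quartiles as a bar and the median of all genes tested as a black tick. Numbers at the right are members called higher and lower of those tested, from 65 and 1 of 74 for 48 h macrophages against Kupffer cells to 0 and 49 of 70 for LY411575.

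The next question is what Notch blockade does to macrophages entering the liver. At 24 h, 49 of 70 members were called lower with LY411575 and 24 of 70 with the antibodies, the second count resting in large part on 1 control library. With LY411575, the member share was 1.92%, 1.93% and 1.95%, against 2.71% and 2.93% in its controls. Of the members 49 were called lower and 0 higher, where 14.3% of 9885 genes were lower and 14.5% higher, with a median of -0.57 against -0.03 for all genes and -0.26 for other short genes. Rplp1 was at 1316 and 1476 TPM in controls and 820, 824 and 859 TPM with the drug, a fall of 0.74 (adjusted p = 4.1e-05). Rps19, a protein mutated in Diamond-Blackfan anaemia, was at 165 and 240 TPM in controls and 96.5, 101 and 109 TPM with the drug, a fall of 0.96 (adjusted p = 0.0012). Rplp0 fell by 0.42 (adjusted p = 4.1e-05) and Rps9 by 0.61 (adjusted p = 8e-05). Leaving out each library in turn gave 33 to 47 members called. Rpl22l1 (0.15, adjusted p = 0.72) and Rps4l (0.23, adjusted p = 0.63) were not called.

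With the antibodies the share was 2.89%, 2.89%, 2.96% and 3.07%, against 3.34% and 4.01% in their controls. Of 70 members 24 were called lower and 0 higher (12.8% of all genes called, 6.13% lower), with a median of -0.34 against -0.01 for all genes. Rps9 was at 1007 and 1167 TPM in controls and 774, 785, 808 and 840 TPM with antibodies, a fall of 0.44 (adjusted p = 0.0019), and Rplp0 fell by 0.26 (adjusted p = 0.0023). The controls of the antibody experiment stood apart from each other, and the count was 4 without the second control and 12 without the treated library numbered 3. With a block for the replicate number, which the labels do not say pairs these libraries, it was 5.

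Other gene lists were counted in the same fits. With LY411575, 6 of 20 other pyrimidine-tract genes were lower and 1 higher, 4 of 36 biogenesis genes lower and 1 higher, and 10 of 76 mitochondrial ribosomal protein genes lower and 0 higher, while 6 of 14 cell cycle genes were higher and none lower. With the antibodies 7 of the 20 and 3 of the 36 were lower and none higher. Kupffer cell markers summed to 666 to 673 TPM in the LY411575 controls and 101 to 103 TPM with the drug, and hepatocyte markers to 588 to 593 TPM and 853 to 878 TPM. Monocyte markers summed to 2940 to 3030 TPM in the LY411575 controls and 5060 to 5410 TPM with the drug. Macrophage markers went from 7760 to 7880 TPM there to 15700 to 16500 TPM. In the antibody experiment hepatocyte markers summed to 2240 to 4550 TPM in controls and 747 to 2150 TPM with antibodies. Its monocyte markers were at 2880 to 3690 TPM and 2570 to 3530 TPM, and its macrophage markers at 10200 to 11000 TPM and 12500 to 16000 TPM. The part of these markers in the members' fall was not tested.

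In monocytes cultured from bone marrow, the Notch ligand DLL4 raised most members. The member share was 2.15% and 2.32% in untreated cultures and 3.36% and 3.45% with DLL4. Of 72 members 59 were called higher and 2 lower, where 33.4% of 10234 genes were higher and 39.2% lower, with a median of 0.55 against -0.05 for all genes and -0.02 for other short genes. By subunit, 36 of 43 large-subunit members were higher and none lower, and 23 of 29 small-subunit members were higher and 2 lower. Rpl13a was at 303 and 332 TPM untreated and 670 and 693 TPM with DLL4, a rise of 1.10 ± 0.05 (adjusted p = 2e-08). Rps9 was at 420 and 460 TPM untreated and 841 and 869 TPM with DLL4, a rise of 0.96 ± 0.05 (adjusted p = 4.9e-08). These are the genes whose promoters are shown above. Rplp0 rose by 0.55 ± 0.03 (adjusted p = 1.7e-07), Rplp1 by 0.45 ± 0.04 (adjusted p = 6.6e-06) and Rps2 by 0.17 ± 0.05 (adjusted p = 0.009). The largest difference, that of Rps27 (1.13 ± 0.21, adjusted p = 0.00074), rests on means of 0.805 and 2.98 TPM. Rps27l, its paralog, fell by 0.62 (adjusted p = 3.2e-07), from 93.7 and 95.9 TPM to 60.6 and 62.2 TPM, and Rps19bp1 by 0.44 (adjusted p just under the threshold, 0.05 as rounded). So the 2 lower members were a paralog and a binding partner.

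Of 33 ribosome biogenesis genes tested in these cultures 3 were higher and 17 lower with DLL4, and of 75 mitochondrial ribosomal protein genes 10 were higher and 32 lower. Of other pyrimidine-tract genes 16 of 20 and of snoRNA host genes, which also start with such a tract, 7 of 8 were higher and none lower. All 18 cell cycle genes fell, with a summed level of 1230 to 1260 TPM untreated and 527 to 579 TPM with DLL4. Monocyte markers summed to 2110 to 2320 TPM untreated and 154 to 162 TPM with DLL4, and macrophage markers to 25100 to 25400 TPM and 7740 to 7980 TPM. Markers of sinusoidal endothelium summed to 89.1 to 99.0 TPM and 749 to 775 TPM. The part of these changes in the members' rise was not tested.

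Desmosterol raised 37 of 72 members in the same cultures, a count that depended on single libraries. The share was 2.57% and 2.68%, and beside the 37 higher members 1 was lower than in untreated cultures (13.3% of all genes called, 4.46% higher), with a median of 0.25 against -0.04 for all genes and 0.14 for other short genes. Rps2 was at 166 and 182 TPM untreated and 222 TPM in both libraries with desmosterol, a rise of 0.35 ± 0.05 (adjusted p = 0.004), and Rpl13a rose by 0.32 ± 0.05 (adjusted p = 0.0046). Rpl5 fell by 0.38 (adjusted p = 0.036). The count of 38 was 12 without the first untreated library and 7 without the second desmosterol library. DLL4 and desmosterol were compared with the same untreated libraries, and the difference between their responses was not tested. TGF-beta given on top of DLL4 lowered 13 members and raised 3 (51.6% of all genes called), with Rps2 down by 0.55 (adjusted p = 1e-05) to 132 and 135 TPM. Under quantile normalization 14 fell and 5 rose there, and the median of all genes moved from -0.10 to 0.03. Desmosterol on top of both raised 2 members, Rpl37rt among them, and lowered 0 (7.91% of all genes called).

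Members called in separate experiments were set side by side for tables that share no library. Of the 65 members higher at 48 h than in Kupffer cells, 57 (87.7%) were also higher with DLL4 in cultured monocytes, which is 98.3% of the 58 called there among members tested in both. Of the 49 members lower with LY411575, 45 (91.8%) were higher with DLL4 in cultured monocytes, 77.6% of 58. Most members were called in each of these comparisons, so that large overlaps follow from the counts alone.

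In BMDMs the same ligand moved few members. In Smad4 control BMDMs DLL4 raised 3 and lowered 3 of 69 (45% of 10267 genes called), with a median of 0.01 against all genes at -0.03. The count of 6 was 3 without either DLL4 library. In C57BL/6J BMDMs at 24 h it raised 4 and lowered 2 of 74 (28.6% of 10908 genes called), a count of 6 that was 10 (4 higher, 6 lower) without the first and 21 (20 higher, 1 lower) without the second untreated library. The difference between cultured monocytes and BMDMs in the response to DLL4 was not tested, since they lie in separate tables. Beside them 1 of 35 biogenesis genes rose and 30 fell in Smad4 control BMDMs.

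The few members that DLL4 moved in BMDMs were in part the same. Rpl22l1 was at 35.0 and 38.5 TPM untreated and 54.0 and 54.8 TPM with DLL4 in Smad4 control BMDMs, a rise of 0.56 ± 0.10 (adjusted p = 0.00055). With DAPT added it was at 42.4 and 42.8 TPM, lower than with DLL4 by 0.35 (adjusted p = 0.018, 29.3% of all genes called), and it was 1 of 2 members called there. In C57BL/6J BMDMs Rpl22l1 was at 31.4 and 31.98 TPM untreated and 45.7 and 46.3 TPM with DLL4, a rise of 0.52 ± 0.11 (adjusted p = 0.0028), and in cultured monocytes at 28.5 and 35.7 TPM and 55.8 and 56.6 TPM, a rise of 0.80 ± 0.13 (adjusted p = 0.00036). None of these pairs of groups overlapped. Rpl5 also rose in all 3 cultures, by 0.32 ± 0.10 (adjusted p = 0.016), 0.42 ± 0.10 (adjusted p = 0.0051) and 0.36 ± 0.10 (adjusted p = 0.0093). Rpl10a, of the stalk through which spent tRNA leaves, fell in both BMDM experiments, by 0.58 (adjusted p = 0.002) and 0.61 (adjusted p = 0.0036), from 20.2 and 22.4 TPM to 13.9 and 14.0 TPM in Smad4 control BMDMs. In cultured monocytes Rpl10a rose by 0.42 ± 0.16 (adjusted p = 0.04), at 4.69 and 6.75 TPM untreated and 6.86 and 9.01 TPM with DLL4. Rpl22l1 and Rpl5 were called higher in both BMDM tables, which is 66.7% of the 3 higher in the one and 50% of the 4 in the other.

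**Figure D4:**
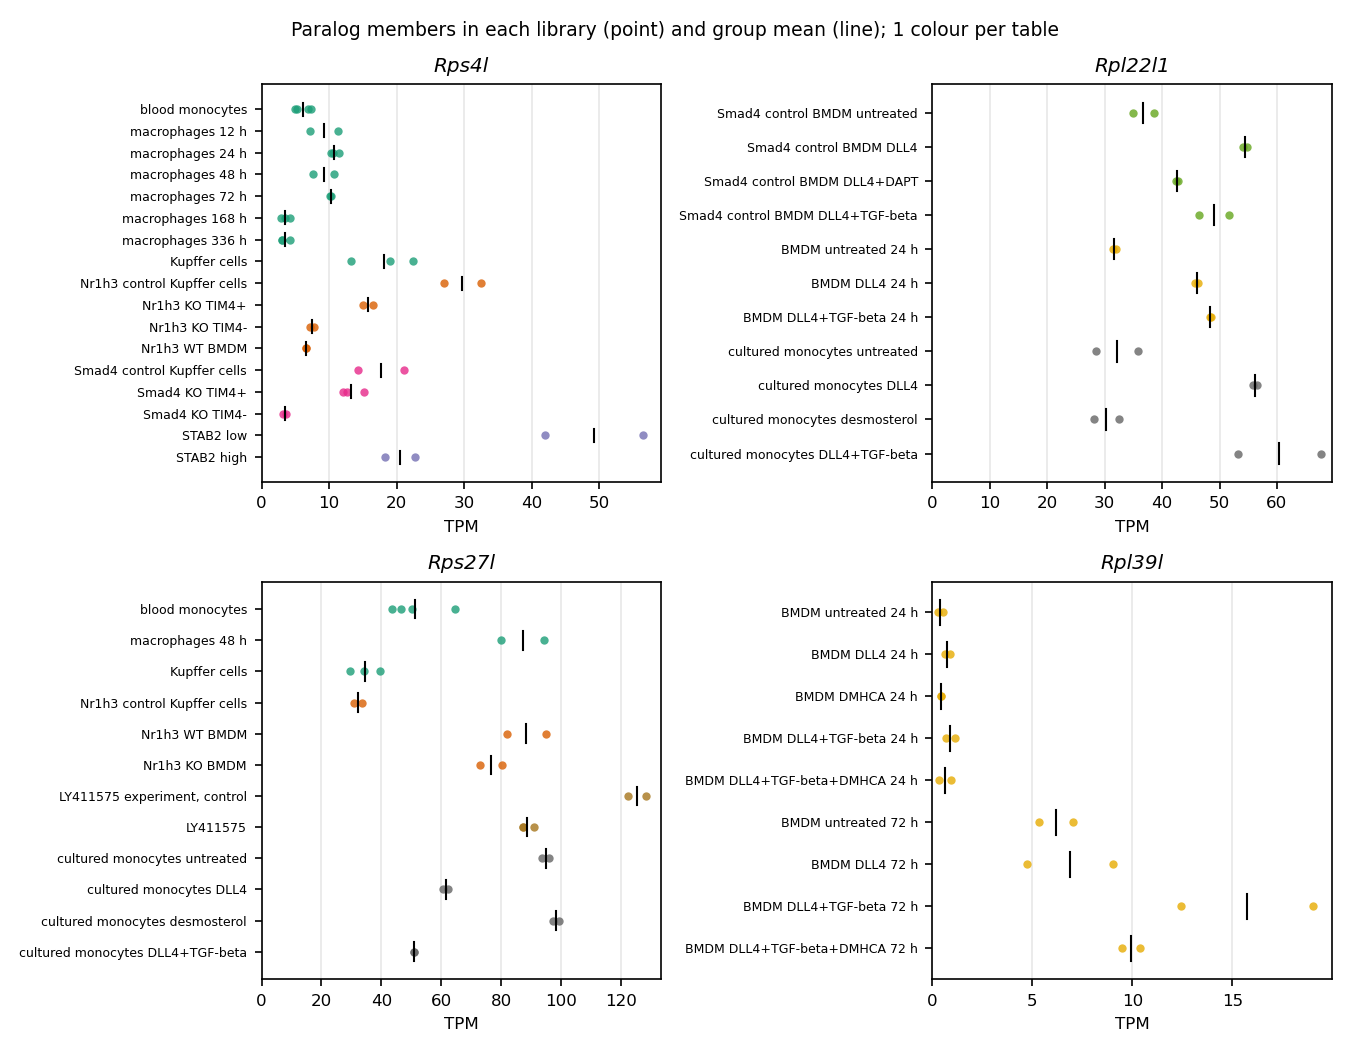
TPM (horizontal axes) of 4 paralog members in each library (points) of the groups that their results turn on (vertical axes), with group means as lines and 1 colour per deposited table. Rps4l is high in Kupffer cells and STAB2-high cells and highest in STAB2-low cells. Rpl22l1 is higher with DLL4 in 3 kinds of culture, Rps27l is lower with DLL4 in cultured monocytes, and Rpl39l is read in BMDMs at 72 h.

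TGF-beta lowered members in Smad4 control BMDMs. Alone it lowered 25 of 69 and raised 0 (36% of all genes called, 20.6% lower), with a median of -0.18 against all genes at -0.04. Other short genes had a median of -0.075 there. On top of DLL4 it lowered 31 and raised 0 (45.9% of all genes called, 30.9% lower). The member median was then -0.18, that of all genes -0.09 and that of other short genes -0.15, close to that of the members. The falls were small: Rplp1 went from 1766 and 1780 TPM to 1547 and 1584 TPM with TGF-beta, a fall of 0.18 (adjusted p = 0.041), and Rpl14 from 333 and 350 TPM to 271 and 296 TPM, a fall of 0.27 (adjusted p = 0.0015). Rpl10a fell most, by 0.94 (adjusted p = 3.5e-05), to 9.43 and 11.9 TPM. The count for TGF-beta alone was 11 and 8 without the first and the second untreated library and 9 without the second TGF-beta library, and it was 13 under quantile normalization. The count on top of DLL4 was 18 and 16 without the first and the second DLL4 library and 11 without the second library given both. Of the biogenesis genes 32 of 35 fell with TGF-beta alone and none rose. In Smad4 knockout BMDMs TGF-beta lowered 1 member and raised 0 (5.62% of all genes called). Tested as an interaction, the response to TGF-beta differed between the genotypes for 0 members by limma, with 14 at an unadjusted p under 0.05 (6.52% of all genes called), and that to DLL4 for 0, with 7 (0.0487%). In C57BL/6J BMDMs, TGF-beta on top of DLL4 lowered 9 members and raised 0 at 24 h (31.4% of all genes called), and raised 9 and lowered 3 at 72 h (38.6%). At 72 h quantile normalization moved the median of all genes from 0.11 to -0.01.

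Untreated Smad4 knockout BMDMs had lower levels of 15 members than controls and higher of 0 (23.8% of all genes called, 13.2% lower), with a median of -0.16 against all genes at -0.04. This count was 7 and 3 without the first and the second control library and 4 and 8 without the first and the second knockout library. Rpl13a, for example, fell by 0.35 (adjusted p = 0.0011). Of the biogenesis genes 33 of 35 were lower and none higher. Of the responses to DLL4 in knockout BMDMs, 10 members fell and 0 rose (42.4% of all genes called), and under quantile normalization 7 fell and 2 rose.

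A pair of members stood far outside these sizes. Rpl34 was at 87.6 to 119 TPM in the 10 control Smad4 BMDM libraries and below 1 TPM in each of the 10 knockout libraries, a difference of -6.14 ± 0.13 between untreated cultures (adjusted p = 1.1e-12). Rpl30 was at 65.8 to 91.9 TPM and 0.662 to 4.27 TPM, a difference of -4.91 ± 0.34 (adjusted p = 4.3e-07). Since both sets of reads were near 0 in every knockout library, whatever the treatment, the fitted sizes depend on the constant of 1 TPM added. These genes were singled out after their values were seen. A search over all 3826 genes at 20 TPM or more in every control library found 4 under 5 TPM in every knockout library. They were Rpl34, Rpl30 and the pseudogenes Rpl34-ps1 and Gm12191, which the tables list at the positions of Rpl34 and Rpl30. In the other direction the search found 0 genes.

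Another member, Rpl29, was at 0 to 0.69 TPM in all 20 Smad4 BMDM libraries, control and knockout, where 77 libraries of the 6 tables without Smad4 mice had 38.1 to 181 TPM (median 68.1). Rpl34 was at 82.0 to 290 TPM and Rpl30 at 44.4 to 232 TPM in those 77. Libraries of Smad4 Kupffer cells went apart within groups. Rpl34 was at 36.9 and 2.37 TPM in the 2 control libraries, at 0.716 to 1.81 TPM in TIM4-positive and at 1.29 and 1.36 TPM in TIM4-negative knockout cells. Rpl30 was at 31.9 and 2.07 TPM in the same 2 controls and at 29.9 to 66.8 TPM in the 5 knockout libraries. Rpl29 was at 0.161 to 0.52 TPM in 5 of the 7 libraries, and at 14.2 and 32.01 TPM in the second TIM4-positive and the second TIM4-negative knockout library. Within the Kupffer cells the libraries low for Rpl34, for Rpl30 and for Rpl29 were thus not the same ones. Rpl32, for comparison, was at 739 to 983 TPM in the BMDMs and 329 to 801 TPM in the Kupffer cells. The Smad4 BMDM table and the STAB2 table list the same isoforms of these 3 genes, and the STAB2 libraries had 82.4 to 135 TPM of Rpl34, 44.4 to 105 TPM of Rpl30 and 55.9 to 82.7 TPM of Rpl29. A cause of the low levels was not tested.

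**Figure D5:**
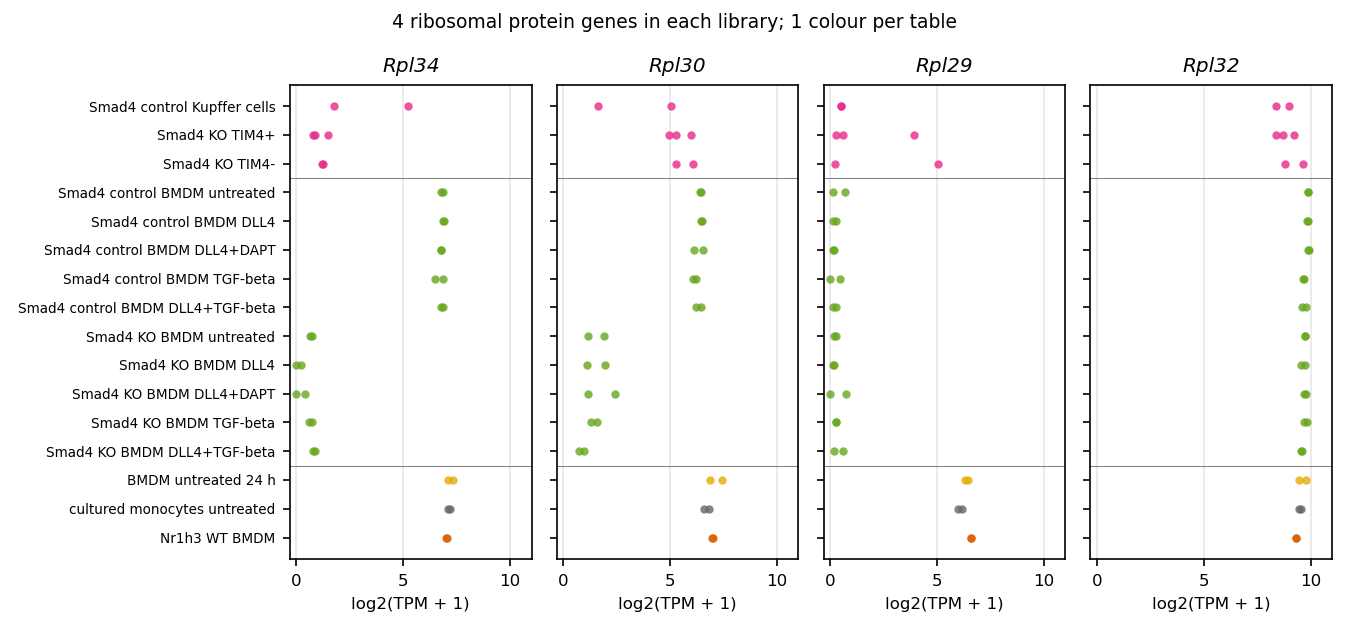
Levels of Rpl34, Rpl30, Rpl29 and, for comparison, Rpl32 as log2(TPM + 1) (horizontal axes) in each library (points) of the Smad4 Kupffer cell groups (top), the Smad4 BMDM groups (middle) and 3 untreated groups of other mice (bottom), with 1 colour per deposited table. Rpl34 and Rpl30 lie near 0 in all 10 Smad4 knockout BMDM libraries and Rpl29 in all 20 Smad4 BMDM libraries, where Rpl32 does not.

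In C57BL/6J BMDMs the 72 h cultures had less ribosomal protein transcript than the 24 h cultures. Untreated cells at 72 h had lower levels than at 24 h for 51 of 74 members and a higher level for 1 (64.2% of all genes called, 45% lower), with a median of -0.43 against -0.21 for all genes and -0.23 for other short genes. Under quantile normalization, where the median of all genes moved to -0.02, 34 members were lower and 1 higher. Rpsa was at 57.6 and 66.2 TPM at 24 h and 31.5 and 31.9 TPM at 72 h, a fall of 0.94 (adjusted p = 9e-08). The 1 higher member was Rpl39l, a paralog of Rpl39 known from testis, at 0.267 and 0.519 TPM at 24 h and 5.34 and 7.01 TPM at 72 h, a rise of 2.36 ± 0.27 (adjusted p = 4.4e-06). With DLL4 and TGF-beta Rpl39l reached 12.5 and 19.0 TPM at 72 h, above DLL4 alone by 1.11 ± 0.27 (adjusted p = 0.0052). All 36 biogenesis genes, 69 of 76 mitochondrial ribosomal protein genes, 19 of 20 other pyrimidine-tract genes and 18 of 18 cell cycle genes were lower at 72 h as well. The 24 h and 72 h cells also differ in the culture day given for them (4 and 6), so that treatment time and age of the culture cannot be told apart.

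With DMHCA alone 25 of 74 members were called higher at 24 h and 3 lower (47.9% of all genes called, 28.7% higher and 19.2% lower). The share of members called higher was thus near that of all genes, and the share called lower was smaller. The median was 0.20, against 0.08 for all genes and 0.10 for other short genes. Rpl13a was at 399 and 486 TPM untreated and 709 and 719 TPM with DMHCA, a rise of 0.70 ± 0.08 (adjusted p = 9.8e-06). Among the 3 lower members were Rpl39, by 0.81 (adjusted p = 6e-05), and Rps28, by 0.21 (adjusted p = 0.03). Rpl39 was at 134 and 162 TPM untreated and 76.5 and 91.7 TPM with DMHCA. The count of 28 was 10 without the first untreated library (6 higher, 4 lower), and 16 and 15 without the first and the second DMHCA library. The untreated libraries had member shares of 2.49% and 3.04%. Of the biogenesis genes 29 of 36 rose and none fell. On top of DLL4 and TGF-beta, DMHCA raised 3 and lowered 1 at 24 h (17.6% of all genes called), and lowered 12 and raised 0 at 72 h (33.5%), which under quantile normalization were 7 lower and 3 higher. DLL4 alone at 72 h raised Rps6, the substrate of the S6 kinases, and lowered 0 members (15.4% of all genes called).

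Over the 49 comparisons between groups, Rps2 was called higher in 17, and no member in more. Rps4l was called higher in 8 and lower in 13, Rps27l higher in 8 and lower in 10, and Rpl22l1 higher in 12 and lower in 4. Rps12, at 2.58 to 7.95 TPM in the time course and with 83.6% of its length shared with other genes, was tested in 45 and called in 0. Because many of these comparisons share libraries, the counts describe the members and are not independent.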

How the data were processed

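Bulk RNA-seq of mouse monocytes, macrophages, Kupffer cells and other liver cells was analysed as 8 deposited tables of TPM. Per the file headers, the authors computed TPM with HOMER from exonic reads of 1 isoform a gene on mm10, and per the submitters' processing notes STAR was the aligner (versions not given in the sources used here). RNA was poly(A)-selected and libraries were strand-specific, per the labels' protocols. Reads of near-identical copies cannot be assigned surely, and how the authors counted them is not given in the sources used here. HOMER's TPM allowed whole reads to be recovered, with 100% of values up to 20 reads lying within 0.1 of a whole number in all 104 libraries. Deposited TPM of all listed genes summed to 510684 to 574479 per library. 17 of the members are listed with another isoform in some table, so tests stayed within tables.

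Tests used limma 3.58.1 (R 4.3.3) on log2(TPM + 1), with 1 model per table, a mean per group and variances following the mean, for genes reaching 4 TPM in 2 libraries or more, and Benjamini-Hochberg adjustment over all genes tested, in 52 comparisons, 3 of them interactions. The procedure was checked on simulated data. Named members are up to 5 called per direction with the largest differences in 13 main comparisons, with further members named for their role or chosen after their values were seen, and values of some members are not reported here. Members and lists were chosen with earlier results of these data known. In 6 tables the labels do not say whether replicate numbers pair the samples, and the main fits left them unpaired. Correlations of deviations between same-numbered libraries ran from -0.261 to 0.339, below 0.1 in some pairs of each. Such values cannot exclude a shared source. In the STAB2 libraries, whose title numbers recur in every class, they ran from 0.057 to 0.137. Among the Smad4 Kupffer cell libraries 1 pair shares a title number and correlated at 0.651, and a block for it was added after the data were seen. A pair there with differing titles correlated at 0.463. Alternatives were a pseudocount of 0.25, no filter, rescaling to the listed sum, quantile normalization, a replicate block and leaving out single libraries. Tables were handled in Python 3.11.15 with pandas 2.3.3 and numpy 2.4.6, and figures drawn with matplotlib 3.10.9. Promoters are RefSeq's (GRCm38.p6), the same assembly as mm10.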

Additional observations from a re-analysis of the deposited data

Results flagged for a closer look

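The response to LY411575 and that to the antibodies, each against its own controls, differed for 5 members when the difference between the responses was tested in the same limma model (Benjamini-Hochberg adjusted over all genes). All 5 fell further with LY411575, where 13.5% of all genes differed. Rpl19 was at 90.5 and 91.5 TPM in the LY411575 controls and 49.5, 51.4 and 54.3 TPM with the drug, and at 102 and 116 TPM in the antibody controls and 86.5 to 96.5 TPM with antibodies, a difference of -0.57 ± 0.11 (adjusted p = 0.005). Rpl13 differed by -0.67 (adjusted p = 0.019), Rplp1 by -0.48 (adjusted p = 0.016), Rps25 by -0.44 (adjusted p = 0.024) and Rps4x by -0.26 (adjusted p = 0.046). Without the filter on low values 3 members differed. The experiments also differ in the sex given in their descriptions, which cannot be told apart from the treatment.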

How the results depend on the processing

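Alternatives were compared by the number of members called, given here with the number as reported in brackets. Under quantile normalization the number was 1 for 48 h against 24 h macrophages (3), 0 for 336 h against 168 h (1), 12 for DLL4 (6) and 13 for TGF-beta (25) in Smad4 control BMDMs, 5 for DAPT on DLL4 there (2), 7 for DMHCA on DLL4 and TGF-beta at 24 h (4) and 0 for desmosterol on DLL4 and TGF-beta (2). Rescaling to the listed sum gave 4 for DAPT on DLL4 and 2 for DLL4 at 72 h (1). Without the filter, which leaves more genes to adjust over, it was 0 for 72 h against 48 h (1), 2 for TIM4-negative against TIM4-positive labelled Nr1h3 knockout cells (5), 20 for TGF-beta on DLL4 in Smad4 control BMDMs (31), 8 for untreated Smad4 knockout against control BMDMs (15), 6 for DLL4 (10) and 0 for TGF-beta (1) in knockout BMDMs, 3 for TGF-beta on DLL4 at 24 h (9), 2 for DMHCA on DLL4 and TGF-beta at 24 h (4), 0 for DLL4 (1) and 6 for TGF-beta on DLL4 (12) at 72 h, 3 for LY411575 against the antibodies (5), 18 for desmosterol (38) and 0 for desmosterol on DLL4 and TGF-beta (2). The cause of the other changes was not tested. Rps13 in Kupffer cells against BMDMs turned to -0.002 under quantile normalization.

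A replicate block was fitted for numbers that the labels do not say mark a shared source. It gave 3 for TIM4-negative against TIM4-positive labelled Nr1h3 knockout cells and 5 for the antibodies (24). Every other count stayed within 1.5 times the reported one. A replicate block by the title number that 2 Smad4 knockout Kupffer cell libraries share gave 1 for TIM4-negative against TIM4-positive cells (0) and 0 for TIM4-positive knockout against control cells (0).

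Leaving out single libraries gave 4 to 36 members for the antibodies, 43 to 65 for 72 h against 24 h BMDMs, 4 to 21 for DLL4 in C57BL/6J BMDMs, 10 to 42 for DMHCA, 57 to 59 for DLL4 and 7 to 36 for desmosterol in cultured monocytes, 29 to 42 for Kupffer cells against monocytes, 33 to 47 for LY411575, 31 to 52 for 12 h macrophages against monocytes, 35 to 45 for 168 h against 72 h, 10 to 23 for 24 h against 12 h, 10 to 15 for 336 h and 64 to 67 for 48 h against Kupffer cells, 3 to 8 for untreated Smad4 knockout BMDMs, 3 to 6 for DLL4, 8 to 35 for TGF-beta and 11 to 26 for TGF-beta on DLL4 in Smad4 control BMDMs, 14 to 39 for STAB2, 47 to 50 for Kupffer cells against BMDMs, 3 to 18 for the labelled Nr1h3 knockout and 0 for the Smad4 knockout Kupffer cells. A group left with 1 library is assumed to vary like the others. Some of these fits were added after the data had been seen.

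The limits are few libraries per group, unknown independence of libraries, reads shared with pseudogenes and a median depth of low members of few reads, such as 6 for Rps13 and 3 for Rpl39l, so that changes of low members are read less surely than those of Rplp0 or Rplp1. Differences are shares of a library's TPM and not amounts per cell.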
